A study of Homo sapiens and Mus musculus with 10 samples.

Results

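Iron uptake, storage and haem genes were followed in 2 myeloid lines treated with WM-1119, a small-molecule inhibitor of the histone acetyltransferase KAT6A. The members were the rows of each expression table whose symbol matched 1 of 10 listed names, with Ftl1 as the mouse counterpart of FTL. This gave 9 genes of 27800 rows in the human table and 9 of 24493 rows in the mouse table. MOLM-13, a human leukaemia line, received 4 µM WM-1119 (3 libraries) or DMSO (3 libraries) in medium with serum. ER-Hoxa9, a mouse line kept as progenitors by an estrogen-controlled HOXA9 protein, received 2 µM WM-1119 (2 libraries) or DMSO (2 libraries), and all 4 of its libraries came from cells grown with stem cell factor and β-estradiol. Treatment lasted 4 days. Each species is represented by a single cell line, and the labels do not say whether replicates were separate cultures, so the p-values reflect only how far these libraries vary, in part perhaps for technical reasons. Levels are TPM, a share of the library scaled for transcript length, so genes can be ranked within a library but the sequencing depth is unknown.

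Cells take up transferrin-bound iron through the transferrin receptor TFRC and move it from the endosome to the cytosol through SLC11A2, while SLC11A1 does the same at the phagosome of myeloid cells. Iron that is not used is stored inside a ferritin shell of heavy chains (FTH1) and light chains (FTL), and NCOA4 carries ferritin to the lysosome when iron is needed again. SLC40A1, ferroportin, exports iron, and HMOX1, haem oxygenase, frees it from haem. IREB2 is an iron-regulatory protein. When iron is scarce, such proteins bind hairpins called iron-responsive elements, which blocks translation of ferritin and ferroportin transcripts and stabilises the TFRC transcript. Ferritin control of this kind acts on translation, which TPM do not measure.

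The hairpins are shown because they are the sequences through which iron-regulatory proteins act on ferritin, ferroportin and TFRC transcripts. Human protein-coding transcripts of GENCODE release 29 (GRCh38) were searched on the transcript strand for a loop of CAGTG and 1 further base other than G, with the 5 bases on either side of the loop able to pair, G with T included, and an unpaired C before the 5′ arm. A match was present in 1.04% of 19652 genes, and in 4 of the 9 human members: once each in the 5′ UTR of FTH1, FTL and SLC40A1, and at 4 places in the 3′ UTR of TFRC. The sites below are written 5′ to 3′ with the loop in capitals, for FTH1 at chr11:61967574-61967602 (minus strand), FTL at chr19:48965335-48965363 (plus strand), SLC40A1 at chr2:189580661-189580689 (minus strand) and, for TFRC, 2 of its 4 sites, at chr3:196050979-196051007 and chr3:196050463-196050491 (minus strand).
FTH1: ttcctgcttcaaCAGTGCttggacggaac
FTL: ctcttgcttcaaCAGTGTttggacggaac
SLC40A1: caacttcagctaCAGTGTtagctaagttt
TFRC, site 1: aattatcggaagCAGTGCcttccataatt
TFRC, site 4: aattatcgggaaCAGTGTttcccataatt
No match was found in SLC11A1, SLC11A2, HMOX1, IREB2 or NCOA4, which says only that these letters and pairings are not in the transcripts searched. Mouse sequences were not used here.

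Before the comparisons, the MOLM-13 libraries numbered 3 stood apart in ways that touch haem and iron. HBA1, an alpha-globin gene, was at 95.2 TPM with DMSO replicate 3 and 158 TPM with WM-1119 replicate 3, and between 0 and 0.439 TPM in the other 4 libraries. HBB, beta-globin, was at 52.1 and 49.4 TPM in the same 2 libraries and at most 0.140 TPM elsewhere. ALAS2, the erythroid enzyme that starts haem synthesis, was low but followed the same split, at 0.785 and 2.22 TPM against at most 0.0643 TPM. HBA1 and HBA2 are near-identical copies, so how reads were divided between them is uncertain. The summed level of the 10 erythroid markers listed ran from 10.1 to 222 TPM with DMSO and from 13.7 to 318 TPM with WM-1119. Ribosomal protein genes also took more of these 2 libraries, 39.9% in DMSO and 33.9% in WM-1119, against 25.7% to 28.4% in the other 4. In bulk RNA a change in the number of cells of a type and a change in RNA per cell cannot be told apart. The part of these features in the iron gene values was not tested, and member differences are therefore also given without that pair, from a fit that also has the replicate number as a block, so their standard errors are not comparable with those of the unblocked fit.

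Ferritin dominated the set in both lines, and ferroportin was nearly absent. FTL ranked number 27 among all rows of the MOLM-13 table by mean level and FTH1 number 145. In mouse cells Ftl1 ranked number 67 and Fth1 number 95. In MOLM-13 the order of levels was FTL, FTH1, TFRC, NCOA4, IREB2, SLC11A2, HMOX1, SLC11A1 and SLC40A1. The library ranges of TFRC and NCOA4 overlapped, as did those of HMOX1 and SLC11A1, and the other neighbours did not overlap. In ER-Hoxa9 the order was Ftl1, Fth1, Ncoa4, Tfrc, Ireb2, Hmox1, Slc11a2 and Slc11a1, with Slc40a1 listed at 0 in all 4 libraries. Only the neighbours Slc11a2 and Slc11a1 overlapped there.

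**Figure D1:**
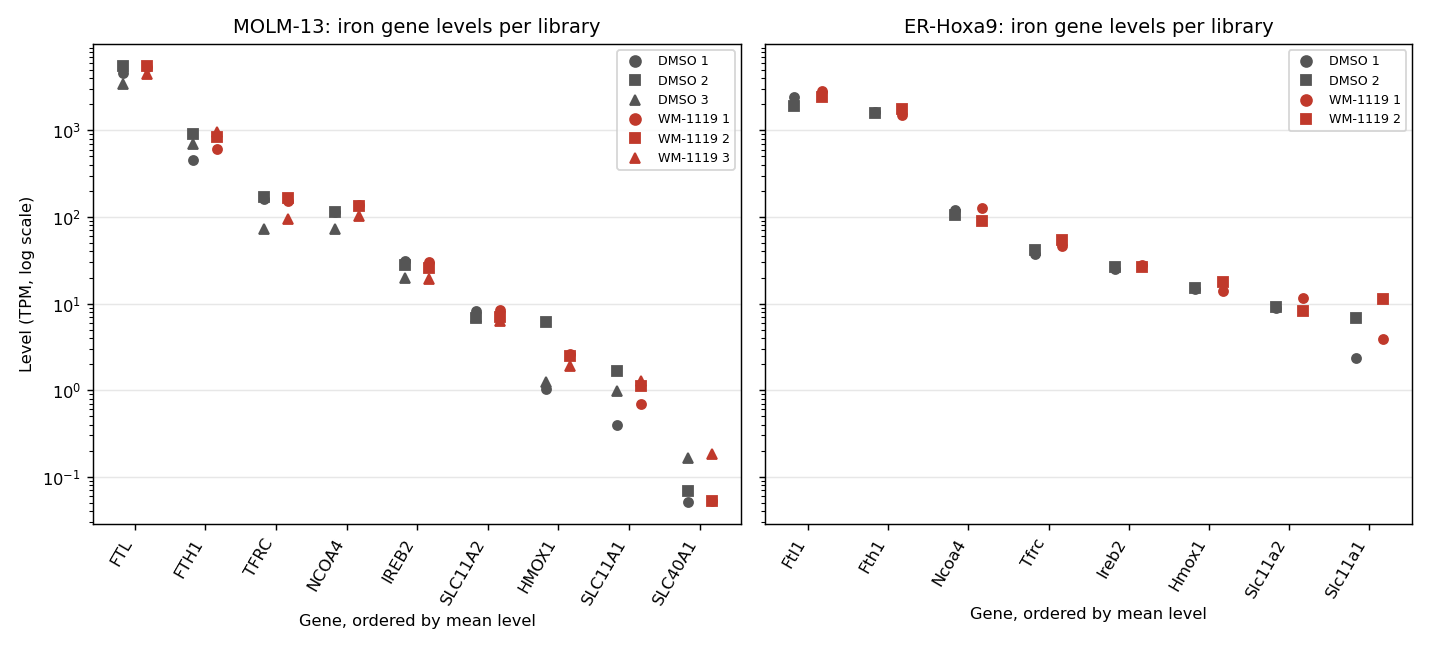
TPM of each iron gene in every library (log scale), MOLM-13 on the left and ER-Hoxa9 on the right, DMSO in grey and WM-1119 in red, with the marker shape giving the replicate number. Slc40a1, listed at 0 in ER-Hoxa9, is not drawn. In MOLM-13 the triangles (replicate 3) lie lowest for TFRC, NCOA4 and IREB2 in both groups.

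No member passed the test for WM-1119 against DMSO in either line. The test was limma on log2(TPM + 1) across all genes averaging 1 TPM or more, with Benjamini-Hochberg adjustment and a threshold of 0.05. It could be applied to 8 of 9 members in each line, since SLC40A1 lay below the filter in both. In MOLM-13, 0 of 8 members were called and 0 were under an unadjusted p of 0.05, where 0.00804% of 12436 genes were called and 3.05% were under the unadjusted threshold. In ER-Hoxa9, 0 of 8 were called and 0 were under the unadjusted threshold, where 0.0352% of 11362 genes were called and 12.8% were under the unadjusted one. With the replicate number as a block, 1 of 8 members was under the unadjusted threshold in MOLM-13 (NCOA4), beside 18.1% of genes, and 3 of 8 in ER-Hoxa9 (Tfrc, Ftl1 and Slc11a1), beside 17.9%, with 0 called in either line. The median log2 difference of the tested members was 0.07 in MOLM-13 and 0.09 in ER-Hoxa9, beside 0.05 and 0.12 over all genes tested. Scaling by the median of ratios shifted the median difference by -0.12 in ER-Hoxa9 and by -0.06 in MOLM-13. Values near those sizes therefore depend on the scaling. In MOLM-13 the rescaled differences were 0.02 for TFRC, 0.19 for FTH1, 0.15 for FTL and 0.25 for NCOA4, and no tested member changed sign there. The 95% interval lay within a log2 difference of 1 either way for 7 of 8 members in each line, the exceptions being HMOX1 in MOLM-13 and Slc11a1 in ER-Hoxa9. Fold changes are on the log2(TPM + 1) scale and understate differences of genes near 1 TPM.

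**Figure D2:**
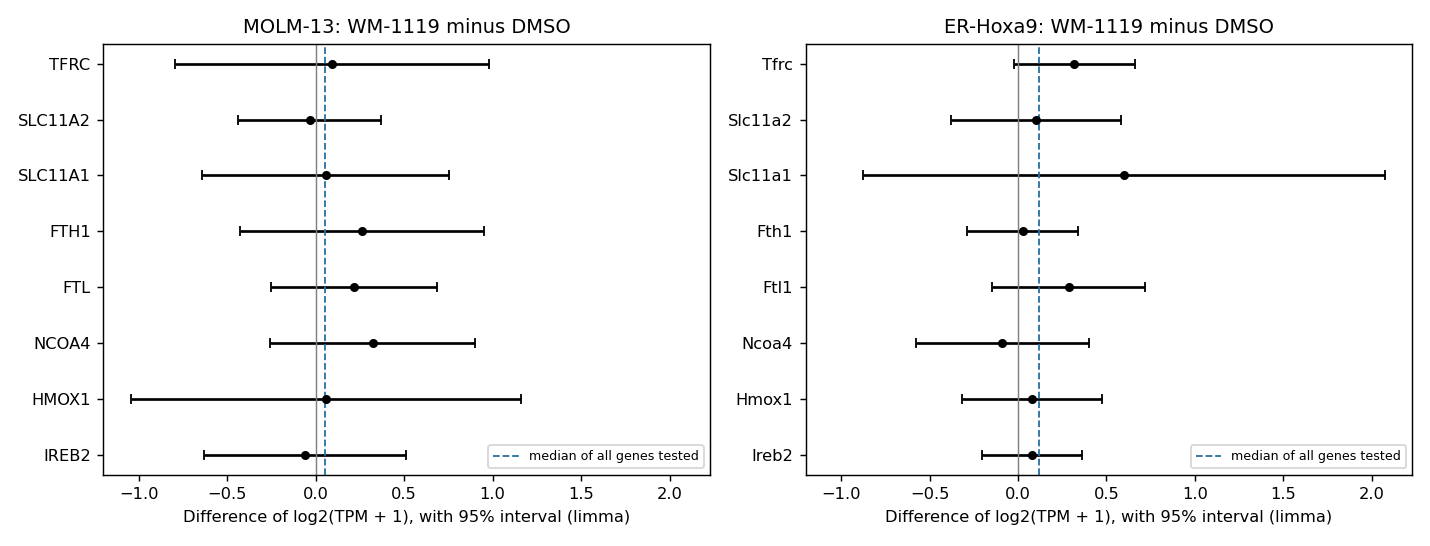
Differences of log2(TPM + 1), WM-1119 minus DMSO, for the 8 tested iron genes of each line, with 95% intervals from limma without a replicate block (3 libraries a group in MOLM-13, 2 in ER-Hoxa9). The dashed line is the median of all genes tested, at 0.05 in MOLM-13 and 0.12 in ER-Hoxa9. All intervals of this fit cross 0, and those of HMOX1 in MOLM-13 and Slc11a1 in ER-Hoxa9 are the widest.

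TFRC, the transferrin receptor, differed more between replicates than between treatments in MOLM-13. It stood at 163, 169 and 73.0 TPM with DMSO replicates 1, 2 and 3, and at 155, 167 and 94.1 TPM in the WM-1119 libraries of the same numbers. Both replicate 3 libraries were low, and the groups overlapped. The log2 difference was 0.09 ± 0.38 (SE, limma adjusted p = 0.999985), with an interval from -0.80 to 0.98. The standard error was 0.11 with the replicate block alone. With the block and without the replicate 3 pair the difference was -0.04 ± 0.08 (2 libraries a group), and in the unblocked fit without DMSO replicate 3 it was -0.30. In ER-Hoxa9, Tfrc stood at 37.9 and 41.6 TPM with DMSO and at 45.7 and 54.1 TPM with WM-1119. Here both WM-1119 libraries lay above both DMSO libraries. The log2 difference of 0.32 ± 0.13 missed the threshold (limma adjusted p = 0.404), and it was 0.19 under median-of-ratios scaling. Of all genes tested in ER-Hoxa9, 40.3% had both WM-1119 libraries above both DMSO libraries and 7.94% had them below, so such a separation is common in that line.

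The 5 genes whose levels ran closest to TFRC over the 6 MOLM-13 libraries were NCAPG, RFX1, EZR, CDCA2 and ORC1, with Pearson correlations of log2(TPM + 1) from 0.997 to 0.999 among 7955 genes compared. NCAPG, a condensin subunit, was at 9.25 and 12.9 TPM in the replicate 3 libraries and at 24.1 to 27.4 TPM in the other 4. ORC1, a subunit of the origin recognition complex, was at 9.46 and 14.1 TPM against 30.2 to 31.9 TPM. EZR, ezrin, a linker of membrane and actin, was at 56.9 and 65.8 TPM against 96.8 to 101 TPM. The likeness therefore follows the low replicate 3 pair, and these 6 points are 3 same-numbered pairs.

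The SLC11 transporters were far below the receptor. SLC11A2, the endosomal iron transporter, was at 8.21, 6.87 and 7.10 TPM in the MOLM-13 DMSO libraries and at 8.39, 6.93 and 6.35 TPM with WM-1119. The groups overlapped, with a log2 difference of -0.03 ± 0.17 (limma adjusted p = 0.999985) and an interval from -0.44 to 0.37. Without the replicate 3 pair it was 0.02. With the replicate block the SLC11A2 interval ran from -0.25 to 0.18 (limma adjusted p = 0.858). In ER-Hoxa9, Slc11a2 was at 8.79 and 9.22 TPM with DMSO and at 11.5 and 8.17 TPM with WM-1119, so the WM-1119 libraries enclosed the controls. This gave a log2 difference of 0.10 ± 0.19 (limma adjusted p = 0.840), and -0.02 under median-of-ratios scaling. The table is per gene, so transcript forms with and without an iron-responsive element could not be separated.

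SLC11A1, the phagosomal transporter, sat at the edge of detection in MOLM-13 and varied most by replicate in ER-Hoxa9. It was at 0.396, 1.64 and 0.978 TPM in MOLM-13 DMSO and at 0.689, 1.12 and 1.29 TPM with WM-1119. Its mean of 1.02 TPM was just above the filter, and without the replicate 3 pair it was not tested. The groups overlapped, with a log2 difference of 0.06 ± 0.30 (limma adjusted p = 0.999985). In ER-Hoxa9, Slc11a1 was at 2.36 and 6.76 TPM with DMSO replicates 1 and 2 and at 3.90 and 11.2 TPM with WM-1119 replicates 1 and 2. Each WM-1119 library was above the DMSO library of its number, but replicate 2 was high in both groups and the groups overlapped. The log2 difference of 0.60 ± 0.58 (limma adjusted p = 0.676) had an interval from -0.87 to 2.07. It was -0.01 without DMSO replicate 1 and -0.06 without WM-1119 replicate 2.

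SLC11A1 and HMOX1 are both used by phagocytes, so the marker levels stand beside them. Monocyte and macrophage markers summed to 769 to 2129 TPM in MOLM-13 DMSO and 2283 to 3487 TPM with WM-1119, most of it the lysozyme gene LYZ. In ER-Hoxa9 they summed to 11.9 to 17.3 TPM with DMSO and 29.8 to 36.4 TPM with WM-1119. No mouse row matched the symbol LYZ, so the ER-Hoxa9 sums hold no lysozyme and are not comparable with those of MOLM-13. The sums did not overlap between treatments in either line. Of single genes tested, 4.54% in MOLM-13 and 40.3% in ER-Hoxa9 had all treated libraries above all controls. Of 15 listed markers in MOLM-13 and 14 in ER-Hoxa9, 5 could be tested in each line. All 5 had a positive log2 difference and 0 were called (limma, 1 under an unadjusted p of 0.05 in MOLM-13 and 4 in ER-Hoxa9). Over all genes tested, 61.5% in MOLM-13 and 71.9% in ER-Hoxa9 were positive, and 3.05% and 12.8% were under the unadjusted threshold. The macrophage genes C1QB and SPIC were listed at 0 in all 6 MOLM-13 libraries and C1qa, Marco and Spic in all 4 ER-Hoxa9 libraries. CD14 was at 0.288 to 1.85 TPM in MOLM-13. Neutrophil markers summed to 97.6 to 142 TPM in MOLM-13 controls and 164 to 215 TPM in treated cells, and to 15.7 to 16.5 and 22.7 to 29.7 TPM in ER-Hoxa9. Most of the MOLM-13 sum was CSF3R, at 82.5 to 108 TPM in controls and 124 to 134 TPM in treated cells. LTF, CAMP and MMP9 were at most 1.31 TPM in MOLM-13, with CAMP higher and MMP9 lower in each pair. The neutrophil sums did not overlap between treatments either, and the 4 neutrophil markers tested in each line were all positive with 0 called (limma, 1 under an unadjusted p of 0.05 in each line). The part of these markers in the transporter and haem oxygenase values was not tested. Markers of myeloid progenitors or blasts summed to 7411 to 13244 TPM in MOLM-13 DMSO and 9166 to 13693 TPM with WM-1119, and to 3693 to 5313 and 5784 to 6439 TPM in ER-Hoxa9. The progenitor sums overlapped between treatments in MOLM-13 and did not in ER-Hoxa9. In each line 9 of these markers were tested, 8 positive and 1 negative, with 0 called. Under an unadjusted p of 0.05 (limma) were 0 of them in MOLM-13 and 5 in ER-Hoxa9.

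Ferritin heavy chain, FTH1, was at 452, 906 and 706 TPM in MOLM-13 DMSO replicates 1, 2 and 3 and at 618, 837 and 964 TPM with WM-1119. The lowest value was a DMSO library and the highest a WM-1119 library, but the groups overlapped and the pair numbered 2 ran the other way. The estimated log2 difference was 0.26 ± 0.29 (limma adjusted p = 0.999985), with an interval from -0.43 to 0.95. It was 0.17 without the replicate 3 pair and -0.01 without DMSO replicate 1. With the replicate block the FTH1 interval ran from -0.09 to 0.62 (limma adjusted p = 0.375). In ER-Hoxa9, Fth1 was at 1612 and 1594 TPM with DMSO and at 1527 and 1747 TPM with WM-1119. The controls lay between the treated libraries, with a log2 difference of 0.03 ± 0.12 (limma adjusted p = 0.945), and of -0.11 under median-of-ratios scaling. Its interval ran from -0.29 to 0.34.

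Ferritin light chain, FTL, was the most abundant member. It stood at 4631, 5506 and 3439 TPM in MOLM-13 DMSO and at 5452, 5576 and 4528 TPM with WM-1119. Each WM-1119 library was above the DMSO library of its number, by 0.24, 0.02 and 0.40 on the log2 scale, and the groups overlapped. The fitted difference (log2) was 0.22 ± 0.20 (limma adjusted p = 0.999985), and 0.13 without the replicate 3 pair. With the replicate block the FTL standard error was 0.10 and the interval ran from -0.04 to 0.47 (limma adjusted p = 0.324). In ER-Hoxa9, Ftl1 was at 2449 and 1914 TPM with DMSO and at 2834 and 2459 TPM with WM-1119. The lower treated library was only just above the higher control, and the log2 difference of 0.29 ± 0.17 missed the threshold (limma adjusted p = 0.516). Under median-of-ratios scaling the Ftl1 difference was 0.15. Both ferritin genes have many processed copies in the genome, and reads shared with them could be placed differently by another counting. The other rows of the tables with ferritin symbols, 4 human and 7 mouse, did not exceed 0.523 TPM.

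NCOA4, the receptor that delivers ferritin to the lysosome, was at 115, 115 and 72.0 TPM in MOLM-13 DMSO and at 138, 132 and 102 TPM with WM-1119. All 3 same-numbered pairs were higher with WM-1119, by 0.26, 0.21 and 0.50 on the log2 scale, while the groups overlapped through WM-1119 replicate 3. The log2 difference was 0.32 ± 0.25 (limma adjusted p = 0.999985), and 0.23 without the replicate 3 pair. With the replicate block the interval ran from 0.11 to 0.54, and the adjusted p of limma was 0.190. The unblocked difference was 0.10 to 0.46 when 1 library was left out. FTL and NCOA4 were the 2 of 8 tested members that were higher in every pair, and IREB2 the 1 that was lower in every pair. Over all genes tested, 28.6% were higher in every pair and 14.4% lower. In ER-Hoxa9, Ncoa4 was at 119.9 and 107 TPM with DMSO and at 126 and 89.4 TPM with WM-1119, with the treated libraries on either side of the controls. This was a log2 difference of -0.09 ± 0.19 (limma adjusted p = 0.860), and of -0.22 under median-of-ratios scaling.

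Ratios of members within a library do not depend on how a library is scaled. In MOLM-13 each of the ratios below kept the order of the replicates in both treatments. The FTL to FTH1 ratio was 10.2, 6.08 and 4.87 in MOLM-13 DMSO and 8.82, 6.66 and 4.70 in WM-1119. In ER-Hoxa9 the Ftl1 to Fth1 ratio was 1.52 and 1.20 in DMSO and 1.86 and 1.41 in WM-1119, higher with WM-1119 in both pairs although the groups overlapped. The FTH1 to TFRC ratio, storage over uptake, was 2.77, 5.37 and 9.67 in MOLM-13 DMSO and 3.99, 4.998 and 10.2 in WM-1119. In ER-Hoxa9 it was 42.6 and 38.3 in DMSO and 33.4 and 32.3 in WM-1119, lower in both treated libraries than in either control. Tfrc alone also separated the groups there, and 48.2% of single genes tested in that line did not overlap between groups. The FTH1 to NCOA4 ratio ran from 3.93 to 9.81 in MOLM-13 and from 12.1 to 19.5 in ER-Hoxa9. These ratios carry no test, and the lines were estimated in separate tables of different species, so the gap between them is a description only. Both chains together made up 0.415% to 0.641% of all TPM in MOLM-13 and 0.351% to 0.436% in ER-Hoxa9.

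**Figure D3:**
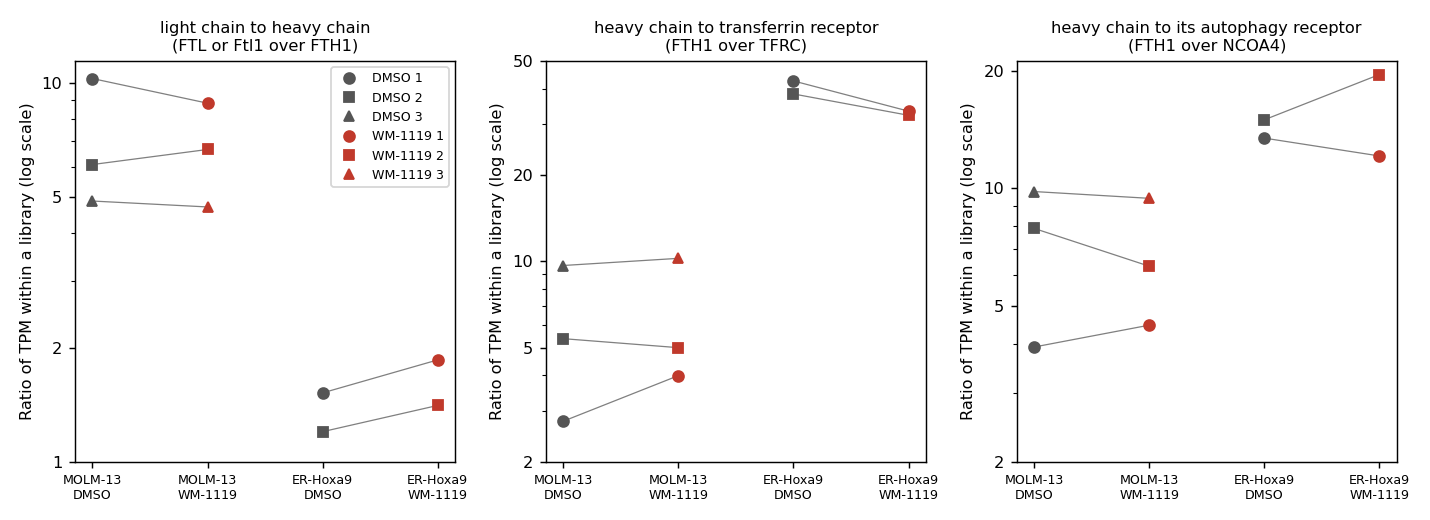
Ratios of TPM within each library (log scale) for light to heavy ferritin chain, heavy chain to transferrin receptor and heavy chain to NCOA4. Grey lines join libraries of the same replicate number, which in ER-Hoxa9 is a shared number only. In MOLM-13 the replicates keep their order in DMSO and WM-1119 in all 3 panels. In ER-Hoxa9 the heavy chain to receptor ratio is 42.6 and 38.3 in DMSO against 33.4 and 32.3 in WM-1119. Of single genes tested in that line, 48.2% did not overlap between groups.

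The genes whose levels ran closest to FTH1 over the 6 MOLM-13 libraries were ALOX5AP, LPAR6, SNTB1, SAT1 and PTMS, with Pearson correlations from 0.980 to 0.995. ALOX5AP, an activator of leukotriene synthesis, was at 247, 450 and 362 TPM with DMSO and at 337, 420 and 455 TPM with WM-1119. SAT1, an enzyme of polyamine breakdown, was at 46.9, 83.8 and 67.5 TPM with DMSO and at 60.6, 69.6 and 86.7 TPM with WM-1119. In both genes DMSO replicate 1 was the lowest library and WM-1119 replicate 3 the highest, as for FTH1. These genes were picked for running with FTH1, so such likeness follows from the choice. SNTB1 was highest in DMSO replicate 2, at 64.08 TPM against 64.07 TPM in WM-1119 replicate 3.

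SLC40A1, the iron exporter, was at 0.0510, 0.0681 and 0.166 TPM in MOLM-13 DMSO and at 0.0521, 0.0519 and 0.185 TPM with WM-1119. The replicate 3 libraries were again the ones apart, here the highest. With Slc40a1 listed at 0 throughout ER-Hoxa9, no fold change is given for either line.

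HMOX1, the inducible haem oxygenase, was low in MOLM-13 and moderate in ER-Hoxa9. In MOLM-13 it was at 1.02, 6.14 and 1.25 TPM with DMSO and at 2.60, 2.47 and 1.92 TPM with WM-1119. DMSO replicate 2 was above every other library, and DMSO replicates 1 and 3 were below every treated one. The means, 2.80 ± 2.89 and 2.33 ± 0.365 TPM (SD, n = 3), point the other way from the log2 difference of 0.06 ± 0.47 (limma adjusted p = 0.999985), whose interval ran from -1.04 to 1.16. The difference was 0.64 without DMSO replicate 2 and -0.10 without the replicate 3 pair. In ER-Hoxa9, Hmox1 was at 14.7 and 15.1 TPM with DMSO and at 13.9 and 17.8 TPM with WM-1119, overlapping, with a log2 difference of 0.08 ± 0.16 (limma adjusted p = 0.846) and of -0.05 under median-of-ratios scaling.

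IREB2, the iron-regulatory protein, was at 31.1, 27.7 and 19.8 TPM in MOLM-13 DMSO and at 29.9, 25.8 and 19.3 TPM with WM-1119. Each treated library was slightly below its pair, by 0.03 to 0.10 on the log2 scale, and replicate 3 was lowest in both groups. The estimated log2 difference was -0.06 ± 0.24 (limma adjusted p = 0.999985), and -0.08 without the replicate 3 pair. With the replicate block the IREB2 interval ran from -0.23 to 0.10 (limma adjusted p = 0.630). In ER-Hoxa9, Ireb2 was at 24.9 and 26.2 TPM with DMSO and at 27.6 and 26.4 TPM with WM-1119. Both treated libraries were above both controls by a small margin. The fitted difference (log2) was 0.08 ± 0.11 (limma adjusted p = 0.775), with an interval from -0.20 to 0.36, and it was -0.05 under median-of-ratios scaling. Together with Tfrc and Ftl1, Ireb2 was 1 of 3 members of 8 whose groups did not overlap in ER-Hoxa9, where 48.2% of all genes tested did not overlap, and 0 of 8 members had this in MOLM-13, where 6.97% did (4.54% with all treated libraries above and 2.43% with all below). Counted by same-numbered libraries, 4 of 8 members were higher in both ER-Hoxa9 pairs (Tfrc, Ftl1, Slc11a1 and Ireb2) and 0 of 8 lower, beside 53% and 15.7% of all genes tested.

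The wider iron and haem pathway, 88 genes in 8 lists besides the members, also had no called gene in either line. In MOLM-13, 67 of them were tested, 48 with a positive and 19 with a negative log2 difference (median 0.10), and 1 was under an unadjusted p of 0.05 (limma), where 3.05% of all genes were. With the replicate block, 15 positive and 3 negative ones were under that threshold, where 18.1% of all genes were, and 0 were called. The MOLM-13 split varied with single libraries, and was 58 positive to 9 negative without DMSO replicate 1, 35 to 31 without DMSO replicate 3 and 32 to 35 without WM-1119 replicate 1. In ER-Hoxa9, 68 were tested, 47 positive and 21 negative (median 0.09), and 6 positive and 2 negative ones were under the unadjusted threshold, where 12.8% of all genes were. Leaving out 1 ER-Hoxa9 library puts a lone library in 1 group. The split was then 50 positive to 18 negative without DMSO replicate 1 and 44 to 24 without DMSO replicate 2. It was 41 to 27 without WM-1119 replicate 1 and 47 to 21 without WM-1119 replicate 2. Over all genes tested, 61.5% in MOLM-13 and 71.9% in ER-Hoxa9 had a positive difference, with medians of 0.05 and 0.12. The splits of the single lists given below stand beside these shares and carry no test. Under median-of-ratios scaling the ER-Hoxa9 split was 29 positive to 39 negative, with 2 and 5 under the unadjusted threshold, and the MOLM-13 split was 38 to 29.

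**Figure D4:**
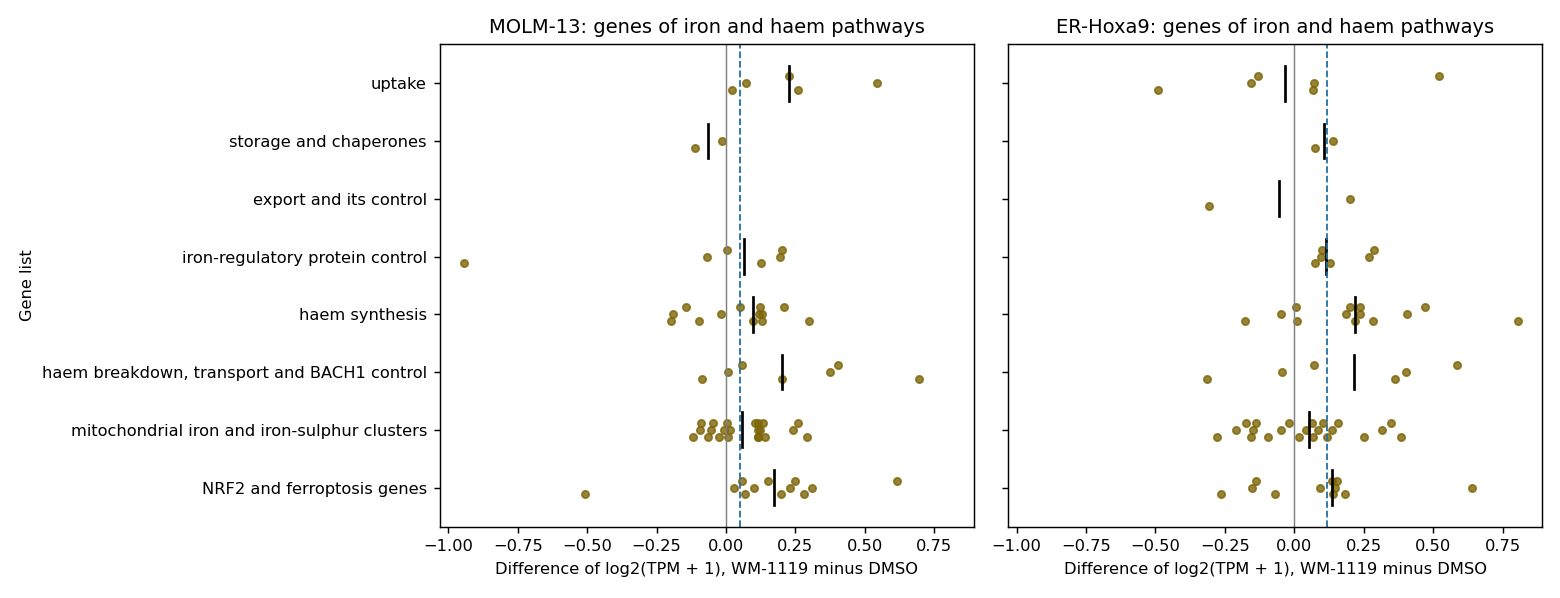
Differences of log2(TPM + 1), WM-1119 minus DMSO, for each tested gene of the 8 iron and haem pathway lists (points), with the list median (black bar) and the median of all genes tested (dashed line, 0.05 in MOLM-13 and 0.12 in ER-Hoxa9). Each panel is 1 line. No gene shown passed the test, and BLVRB in MOLM-13 (0.70) and Alas1 in ER-Hoxa9 (0.81) lie farthest to the right.

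For uptake, 5 of 13 genes were tested in MOLM-13, all with positive differences, and 6 of 13 in ER-Hoxa9, 3 positive and 3 negative. The positive share of all genes tested was 61.5% in MOLM-13 and 71.9% in ER-Hoxa9. SLC39A14, a metal transporter that takes up iron not bound to transferrin, was the most abundant in MOLM-13 at 39.8 ± 12.3 TPM with DMSO and 40.0 ± 9.81 TPM with WM-1119 (SD, n = 3). STEAP3, the endosomal iron reductase, was at 16.7, 7.36 and 9.12 TPM with DMSO and at 23.9, 13.4 and 11.96 TPM with WM-1119, higher in each pair with overlapping groups (log2 difference 0.54 ± 0.35, limma adjusted p = 0.999985). With the replicate block its limma adjusted p was 0.158. In ER-Hoxa9, Slc39a14 was at 26.1 and 22.6 TPM with DMSO and at 19.2 and 15.0 TPM with WM-1119, both treated libraries below both controls, a log2 difference of -0.49 ± 0.16 that missed the threshold (limma adjusted p = 0.355). It was named for the smallest unadjusted p of its list, and 7.94% of genes tested there had both treated libraries below both controls. Lcn2, which binds iron-carrying siderophores, was at 216 and 138 TPM with DMSO and at 261 and 91.5 TPM with WM-1119, a spread by replicate wider than any treatment difference.

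Of the iron chaperones that load ferritin, PCBP1 was at 367 ± 19.0 TPM in MOLM-13 DMSO and 365 ± 39.2 TPM with WM-1119 (SD, n = 3), and PCBP2 at 233 ± 33.7 and 215 ± 16.2 TPM. Pcbp1 was at 364 ± 9.27 and 401 ± 19.2 TPM in ER-Hoxa9 (SD, n = 2; log2 difference 0.14 ± 0.11, limma adjusted p = 0.594). Genes of iron export and its hormonal control were barely expressed. In MOLM-13, 0 of 9 passed the filter and the highest, ERFE, which restrains hepcidin, was at 0.473 ± 0.0601 TPM with DMSO and 0.409 ± 0.121 TPM with WM-1119. In ER-Hoxa9, 2 of 9 were tested, and Hfe, a partner of the transferrin receptors, had the highest mean over all 4 libraries, at 3.32 ± 0.939 TPM in controls and 3.91 ± 0.195 TPM in treated cells. Cp, ceruloplasmin, an iron-oxidising plasma protein, was higher than Hfe in the control mean, at 3.95 ± 2.28 TPM.

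The list for iron-regulatory proteins also held ZFP36 and ZFP36L1, and all 6 of its genes were tested in each line. In MOLM-13, 4 differences were positive and 2 negative. ZFP36, a protein that destabilises AU-rich transcripts, was the most abundant at 87.3 ± 14.8 TPM with DMSO and 99.97 ± 11.8 TPM with WM-1119. Its relative ZFP36L1 was at 0.842, 7.88 and 3.003 TPM with DMSO and at 0.347, 1.99 and 1.29 TPM with WM-1119, lower in each pair with overlapping groups (log2 difference -0.94 ± 0.57, limma adjusted p = 0.999985). The limma adjusted p of ZFP36L1 with the replicate block was 0.194. In ER-Hoxa9 all 6 were positive, where 71.9% of all genes tested were. Aco1, which as an apoprotein is the other iron-regulatory protein, was at 16.4 and 18.6 TPM with DMSO and at 22.9 and 19.7 TPM with WM-1119 (log2 difference 0.27 ± 0.14, limma adjusted p = 0.467). Skp1a, a subunit of the ubiquitin ligase that degrades IREB2, was the most abundant at 139 ± 2.78 and 151 ± 3.05 TPM.

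For haem synthesis, 13 of 14 genes were tested in each line, 8 positive and 5 negative in MOLM-13 (median 0.10) and 11 positive and 2 negative in ER-Hoxa9 (median 0.22). The medians over all genes tested were 0.05 and 0.12, with 61.5% and 71.9% positive. TMEM14C (Tmem14c in mouse), which acts in the import of haem precursors into mitochondria, was the most abundant in both, at 108 ± 13.7 and 118 ± 20.5 TPM in MOLM-13 and at 140.1 ± 4.09 and 165 ± 13.03 TPM in ER-Hoxa9. In MOLM-13, UROD, a decarboxylase of the pathway, had the smallest unadjusted p of the list and was at 33.0 ± 7.80 TPM with DMSO and 40.8 ± 9.46 TPM with WM-1119 (log2 difference 0.30 ± 0.25, limma adjusted p = 0.999985). In ER-Hoxa9, Alas1, the first enzyme of haem synthesis outside erythroid cells, was at 11.4 and 14.9 TPM with DMSO and at 28.3 and 19.6 TPM with WM-1119. Both treated libraries were above both controls, as for 40.3% of genes tested in that line. Alas1 was named for the smallest unadjusted p of its list. Its log2 difference of 0.81 ± 0.23 missed the threshold (limma adjusted p = 0.313).

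For haem breakdown, transport and BACH1, the repressor of HMOX1, 6 of 7 tested genes were positive in MOLM-13 (median 0.20) and 4 of 6 in ER-Hoxa9 (median 0.22). BLVRB, a biliverdin and flavin reductase, was at 24.8, 33.2 and 31.5 TPM in MOLM-13 DMSO and at 48.5, 38.7 and 61.1 TPM with WM-1119. All treated libraries were above all controls, as for 4.54% of genes tested in that line. BLVRB was named as the most abundant gene of its list and the one with the smallest unadjusted p. Its log2 difference of 0.70 ± 0.23 missed the threshold (limma adjusted p = 0.999985). With the replicate block its limma adjusted p was 0.173. Without the block BLVRB was the 1 pathway gene of that line under an unadjusted p of 0.05 (limma). In ER-Hoxa9, Blvra, the main biliverdin reductase, was at 17.2 and 17.03 TPM with DMSO and at 22.8 and 21.7 TPM with WM-1119 (log2 difference 0.36 ± 0.11, limma adjusted p = 0.340). Slc48a1, a haem transporter of the endosome and lysosome, had the highest mean over all 4 libraries, at 52.2 ± 1.22 TPM in controls and 54.9 ± 0.373 TPM in treated cells (SD, n = 2). Hmox2, the constitutive haem oxygenase, was above it in treated cells, at 59.7 ± 2.58 TPM.

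All 22 genes of mitochondrial iron and iron-sulphur cluster assembly were tested in each line, 14 positive and 8 negative in MOLM-13 (median 0.06) and 13 positive and 9 negative in ER-Hoxa9 (median 0.05). HSPA9 (Hspa9 in mouse), the mitochondrial chaperone of cluster transfer, was the most abundant, at 181 ± 35.5 and 175 ± 33.3 TPM in MOLM-13 and at 551 ± 8.53 and 477 ± 23.7 TPM in ER-Hoxa9. NFU1, a cluster carrier, was at 22.9 ± 3.52 TPM in MOLM-13 DMSO and 28.1 ± 1.64 TPM with WM-1119 (log2 difference 0.29 ± 0.18, limma adjusted p = 0.999985). Nubp1, a cytosolic cluster scaffold, was at 24.2 and 25.01 TPM in ER-Hoxa9 DMSO and at 33.0 and 30.2 TPM with WM-1119 (log2 difference 0.35 ± 0.11, limma adjusted p = 0.351). Of the NRF2 and ferroptosis genes, which include both brakes on iron-driven lipid oxidation and genes that favour it, such as ACSL4, 11 of 12 tested were positive in MOLM-13 (median 0.17) and 7 of 11 in ER-Hoxa9 (median 0.14). Of all genes tested, 61.5% and 71.9% were positive, with medians of 0.05 and 0.12. NQO1, a quinone reductase, was at 6.19, 4.43 and 2.77 TPM in MOLM-13 DMSO and at 10.1, 7.78 and 4.42 TPM with WM-1119, higher in each pair with overlapping groups (log2 difference 0.61 ± 0.34, limma adjusted p = 0.999985). Its limma adjusted p with the replicate block was 0.123. PRDX1, a peroxiredoxin, was the most abundant of the list in MOLM-13, at 408 ± 118 and 423 ± 90.5 TPM. In ER-Hoxa9, Prdx1 was at 86.0 and 97.0 TPM with DMSO and at 135.0 and 151 TPM with WM-1119, a separation of the groups with a log2 difference of 0.64 ± 0.12 that missed the threshold (limma adjusted p = 0.300). Prdx1 was named for the smallest unadjusted p of its list, and 40.3% of genes tested in ER-Hoxa9 separated upwards in this way. Gpx4, the peroxidase that repairs oxidised lipids, was the most abundant there, at 342 ± 17.3 and 365 ± 10.8 TPM (SD, n = 2).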

How the data were processed

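RNA sequencing of 10 libraries of 2 lines was analysed. For each line the authors deposited a table of TPM by gene symbol, estimated with Salmon, and builds hg38 and mm10 are named, per the submitters' processing notes. For Salmon, the version is not given in the sources used here, nor is the annotation. Columns were matched to samples by treatment and number, and the table by species, because the mouse columns carry a line name the labels do not use. No column was left unassigned (0 of all). TPM keep no depth, so no counting interval is given.

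Genes averaging 1 TPM or more were tested line by line on log2(TPM + 1), using limma 3.58.1 (eBayes with trend) in R 4.3.3, without a replicate block, with two-sided Benjamini-Hochberg adjusted p under 0.05 called. The fits were tested on simulated data. Figures used matplotlib 3.10.9. Named were all members and, per list and line, the most abundant gene, called genes, or else the gene with the smallest unadjusted p; likeness used genes of at least 5 TPM. CIAO2B, HJV and mouse Skp1 were matched by the tables' symbols FAM96B, HFE2 and Skp1a. The members and lists were chosen with earlier results of these data known.

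In MOLM-13, same-numbered libraries deviated together from their group means, with correlations across genes of 0.522, 0.438 and 0.608, each above 0.1, so the numbers pair them. The values printed come from the fit without a block unless the block is named. Without a block, the MOLM-13 standard errors also hold the spread between replicate numbers. What a shared number stands for is not in the labels. In ER-Hoxa9 there are only 2 pairs, so the libraries share a number only. No 2 libraries held identical values. Alternatives were another pseudocount, other filters, scalings, gene removals, robust variances, the replicate block and leaving out each library. Leaving out the MOLM-13 replicate 3 pair was chosen after seeing the data.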

Additional observations from a re-analysis of the deposited data

How the results depend on the processing

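The number of members called and of pathway genes called was 0 in each line under every alternative run, so no member's call depends on these settings. The number of genes called over the whole table, 1 in MOLM-13 and 4 in ER-Hoxa9, was unstable. In MOLM-13 it was 0 without a filter on low values, 2 with robust variances, 0 with the replicate block, 0 with the block and without the replicate 3 pair, and 0 to 6 when 1 library was left out. In ER-Hoxa9 it was 6 with robust variances, 3 with median-of-ratios scaling, 2 without microRNA symbols and 0 with a pseudocount of 0.1. The ER-Hoxa9 count was also 0 without a filter, with a mean of at least 5 TPM and with the replicate block. With the block 1 of 8 members was under an unadjusted p of 0.05 in MOLM-13 (NCOA4, limma adjusted p = 0.190), where 18.1% of genes were, and 3 of 8 in ER-Hoxa9 (Tfrc, Ftl1 and Slc11a1), where 17.9% were. The deviations of same-numbered ER-Hoxa9 libraries had a correlation of 0.206. With the block no member and no pathway gene was called. Pathway genes under an unadjusted p of 0.05 (limma) were then 15 positive and 3 negative in MOLM-13. In ER-Hoxa9 they were 9 positive and 2 negative.

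Signs of uncalled differences turned in several fits, and the cause was not tested. With the block and without the replicate 3 pair, TFRC was -0.043, SLC11A2 0.020 and HMOX1 -0.10. Under median-of-ratios scaling of ER-Hoxa9, Fth1 was -0.11, Slc11a2 -0.022, Hmox1 -0.046 and Ireb2 -0.050, and with ribosomal protein genes removed Fth1 was -0.056 and Ireb2 -1.3e-05. When 1 library was left out, the MOLM-13 differences ran from -0.30 to 0.35 for TFRC, -0.012 to 0.49 for FTH1, -0.18 to 0.18 for SLC11A1, -0.13 to 0.044 for SLC11A2, -0.27 to 0.64 for HMOX1 and -0.24 to 0.11 for IREB2. In ER-Hoxa9 they ran from -0.070 to 0.12 for Fth1, -0.060 to 1.26 for Slc11a1, -0.13 to 0.33 for Slc11a2, -0.088 to 0.25 for Hmox1 and -0.34 to 0.16 for Ncoa4. In those ER-Hoxa9 fits 1 group has a lone library that is assumed to vary like the other group. FTL and NCOA4 in MOLM-13 and Tfrc and Ftl1 in ER-Hoxa9 kept a positive sign in every fit that tested them, but leaving out 1 library moved them from 0.032 to 0.37 for FTL, 0.10 to 0.46 for NCOA4, 0.20 to 0.44 for Tfrc and 0.11 to 0.46 for Ftl1. FTL and NCOA4 were lowest without DMSO replicate 3, Tfrc without WM-1119 replicate 2 and Ftl1 without DMSO replicate 2. SLC11A1 in MOLM-13 fell below the filter in some fits and has no value there, and HMOX1 has none at a mean of at least 5 TPM. TPM give no depth, so low genes such as SLC11A1 and SLC40A1 have no counting error here.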
